A study of Mus musculus with 25 samples.

Results

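Transcript levels of 10 genes that beta-catenin maintains in hepatocytes around the central vein were followed in livers and liver tumors of mice that lack Mcl-1, an anti-apoptotic relative of BCL2, in hepatocytes. The genes were Glul, Rhbg, Slc1a2, Oat, Gulo, Cyp2e1, Cyp1a2, Axin2, Lgr5 and Tbx3, picked by name from what is known of liver zonation and not by a rule on their values. Earlier results of these data were known when they were picked. They are 10 of the 17016 gene symbols on the array, and all 10 were measured. At 2 months of age there were 3 knockout (KO) mice (animals 137, 64 and 69), 3 hemizygous mice (27, 28 and 30) and 2 wild-type (WT) mice (31 and 34). Tumor tissue, labelled HCC (hepatocellular carcinoma), and non-tumor liver came from each of 3 KO mice of 8 months (1347, 1287 and 934) and 4 KO mice of 12 months (1109, 638, 702 and 793). A further 3 WT mice of 12 months (552, 641 and 1110) served as controls for the 12-month tissues, and no WT mouse of 8 months was measured. The genotypes were littermates, and no mouse was treated. The labels used here give neither the Cre driver, nor the deleted part of Mcl-1, nor the sex of the animals. RNA came from homogenised whole liver, so all liver cell types contributed, and fewer cells of a type cannot be told apart from less RNA per cell.

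Blood enters the liver lobule at the portal veins and leaves at the central vein, and hepatocytes along this path carry out different tasks. WNT ligands and R-spondins from endothelial cells of the central vein stabilise beta-catenin in the nearest hepatocytes, where it acts with TCF and LEF factors to switch on the pericentral programme. That programme covers ammonia removal by glutamine synthesis, oxidation of drugs and alcohol, and feedback regulators of the WNT pathway itself. A homogenate carries no position, so zonation as such was not measured.

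Promoters are shown first because TCF and LEF factors bind DNA directly. RefSeq (GRCm38.p6) gave a window of 300 bases, 250 before to 50 after the annotated start, for 6 of the 10 genes: Glul, Slc1a2, Oat, Cyp2e1, Cyp1a2 and Axin2. The TCF/LEF core CTTTGAA or CTTTGAT, searched on both strands, occurred in 3 of these 6 windows and in 8.7% of all 32851 promoter windows. The 3 windows with a match are chr7:140763569-140763868 on the plus strand for Cyp2e1, chr9:57683606-57683905 on the minus strand for Cyp1a2 and chr2:102706188-102706487 on the plus strand for Slc1a2. They are written 5′ to 3′ in the direction of transcription, with the match in capitals. The match lay 135 bases before the start in Cyp2e1. It lay on the opposite strand 244 bases before the start in Cyp1a2 and 207 bases before it in Slc1a2, so the capitals there spell the reverse complement of the core. The windows of Slc1a2 and Axin2 lie at a start inside the gene as annotated, downstream of its outermost start, and the sequence before that outermost start was not searched for either gene.
Cyp2e1: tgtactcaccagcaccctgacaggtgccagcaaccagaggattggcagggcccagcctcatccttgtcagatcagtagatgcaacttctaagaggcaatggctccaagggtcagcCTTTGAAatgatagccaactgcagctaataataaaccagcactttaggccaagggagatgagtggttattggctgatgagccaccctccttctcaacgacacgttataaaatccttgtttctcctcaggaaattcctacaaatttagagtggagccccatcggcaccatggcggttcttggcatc
Cyp1a2: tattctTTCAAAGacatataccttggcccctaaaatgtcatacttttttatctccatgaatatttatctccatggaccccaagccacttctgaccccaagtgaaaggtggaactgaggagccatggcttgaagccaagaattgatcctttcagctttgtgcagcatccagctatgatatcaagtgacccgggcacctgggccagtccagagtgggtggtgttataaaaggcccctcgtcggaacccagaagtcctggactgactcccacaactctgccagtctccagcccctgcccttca
Slc1a2: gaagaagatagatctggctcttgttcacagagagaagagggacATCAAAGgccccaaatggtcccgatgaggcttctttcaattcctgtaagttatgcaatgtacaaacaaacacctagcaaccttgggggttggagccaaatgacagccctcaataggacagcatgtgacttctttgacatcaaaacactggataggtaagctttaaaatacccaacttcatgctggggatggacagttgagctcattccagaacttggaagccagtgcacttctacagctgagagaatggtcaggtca
The core GCGTG, bound by the aryl hydrocarbon receptor with its partner ARNT, was searched because Cyp1a2 is a known target of that receptor. It was in 0 of the 6 windows and in 32.4% of all windows, which says only that these letters are not in these stretches. A match is a string of letters and does not show binding.

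Each level is the log2 of a probe's processed signal with the 75th percentile of its array taken off, so 0 is the signal below which 75% of probes lie, and a difference of 1 is a doubling. Each probe has its own brightness, so levels are compared between samples and never between genes. Each array held 41174 probes, of which at least 60.4% were well above background. The 10 genes were well above background on all 25 arrays, except Axin2 in the tumor of animal 1347, and none was saturated. The 25 arrays came from 8 slides, read on 2 scan days. The level of Xist was well above background on 15 of 25 arrays, so both sexes were present, unevenly over the groups. The samples of animal 934 disagreed, with Xist at -4.98 and well above background in non-tumor liver. In its tumor Xist was at -7.39 and not well above background, so the call does not settle the sex of that animal. Hepatocyte markers, 9 of 9 measured, were well above background on every array.

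Mcl1 (GRCm38.p6 chromosome 3, 95656944 to 95663179) was read as a check of the labels. At 2 months it was at 1.84, 1.53 and 2.09 in KO mice, 3.24, 3.20 and 3.58 in hemizygous mice and 4.02 and 4.50 in WT mice. It fell in KO livers, without overlap, by 2.44 on the log2 scale (SE 0.37, limma adjusted p = 0.046). That call was lost on leaving out any 1 of the 5 mice, with adjusted p between 0.0765 and 0.319, and with slide as a block (0.291), while every one of these differences was below -2. At 12 months it was at 2.82, 2.39, 2.54 and 2.73 in KO non-tumor liver, against 4.47, 3.88 and 4.50 in WT liver, again without overlap (difference -1.66, SE 0.31, adjusted p = 0.0946).

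Arrays of 3 KO animals stood apart in the 10 genes, and the values that moved most without animal 702 or 1347 are given below. Non-tumor liver of animal 702 was the lowest of the 18 arrays without tumor in 10 of the 10 genes, as it was in 12.7% of all genes. The tumor of animal 1347 was the lowest of the 7 tumors in 6 of the 10 genes (29.0% of all genes), and the tumor of animal 702 in the other 4 (11.6%). The tumor of animal 638 was the highest of the 7 tumors in 8 of the 10 genes (28.8% of all genes), and its non-tumor liver was the highest of the 7 non-tumor livers in 7 (23.5%). Relative to each gene's median over 25 arrays, the median of the 10 genes was -2.55 in the tumor of 1347, -1.72 in the tumor of 702 and -2.32 in non-tumor liver of 702. It was 0.98 in non-tumor liver of 638, and on the remaining arrays it lay between -1.63 (tumor of 1109) and 0.65 (KO mouse 137).

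**Figure D1:**
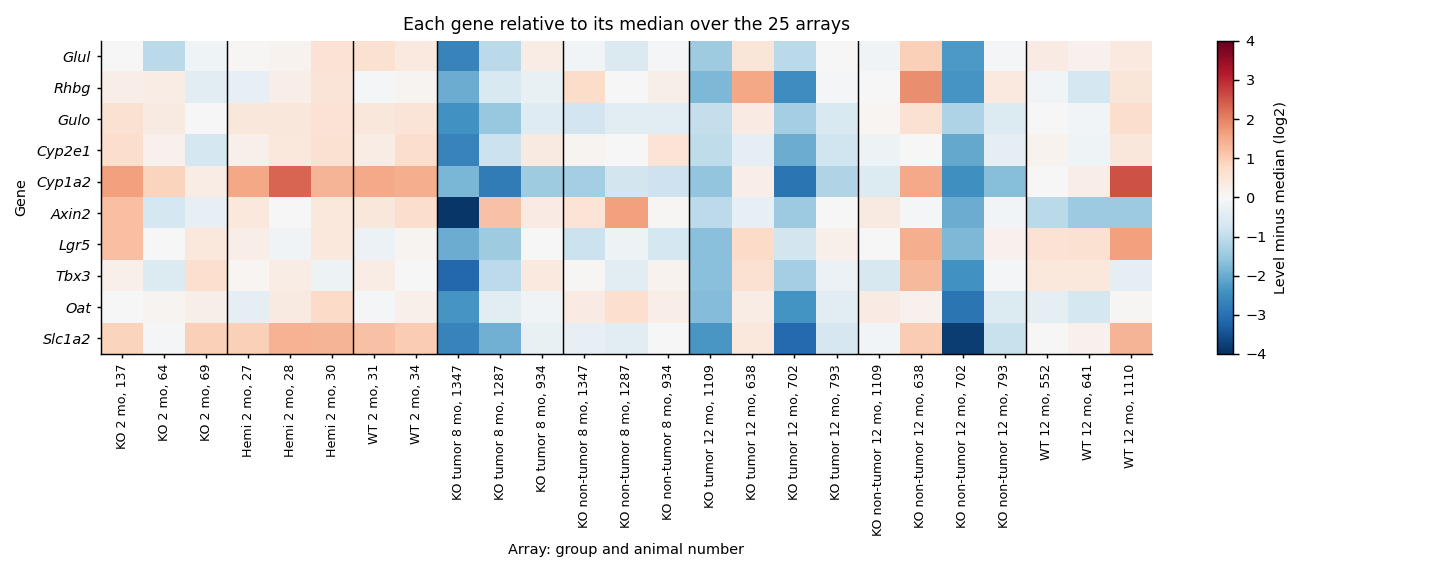
Level of each of the 10 genes minus that gene's median over the 25 arrays (log2, color scale from -4 to 4), with genes in rows and arrays in columns by group and animal. The tumors of animals 1347, 702 and 1109 and the non-tumor liver of 702 are below the median in 10 of 10 genes.

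At 2 months the differences of the 10 genes between KO and WT livers ran from -0.91 (Glul) to 0.61 (Lgr5), and none passed the threshold of an adjusted p under 0.05. Limma called 7 of 27116 genes (0.0258%). At an unadjusted p under 0.05 the count was 0 of the 10, beside 8.85% of all genes. The median difference of the 10 was -0.31 with 7 below 0, and that of all genes was -0.02 with 51.1% below 0.

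Among the genes of nitrogen handling, Glul had the lowest difference. Glul encodes glutamine synthetase, which captures ammonia left over by the urea cycle (chromosome 1, 153899929 to 153909723). Its level was 5.77, 4.65 and 5.57 in KO mice, 5.79, 5.87 and 6.32 in hemizygous mice and 6.36 and 6.13 in WT mice. Each KO mouse was below each mouse of the other genotypes, and the difference from WT was -0.91 (SE 0.65, adjusted p = 0.752, 95% interval -2.31 to 0.48). Slc1a2, a glutamate transporter that supplies that reaction (chromosome 2, 102658239 to 102790784), was at 3.42, 2.48 and 3.48 in KO mice, against 3.71 and 3.55 in WT mice. It too did not overlap, with a difference of -0.50 (SE 0.94, adjusted p = 0.929). These 2 genes were the 2 of the 10 that were lower in KO without overlap, beside 19.4% of all genes.

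Rhbg, an ammonium transporter (chromosome 3, 88242874 to 88254739), averaged 2.54 ± 0.42 in KO mice (SD, n = 3) and 2.53 ± 0.11 in WT mice (SD, n = 2). Oat, the ornithine aminotransferase that passes ornithine towards glutamate (chromosome 7, 132557475 to 132576398), averaged 7.19 ± 0.11 in KO mice (n = 3) and 7.14 ± 0.20 in WT mice (n = 2). Their differences of 0.01 and 0.05 had 95% intervals of -1.74 to 1.75 for Rhbg and -1.44 to 1.54 for Oat. These leave room for more than a doubling either way. The intervals rest on a variance pooled over all groups without tumor tissue, not on the 2-month mice alone. Among those groups the SD was largest in KO non-tumor liver of 12 months, at 1.743 for Rhbg and 1.495 for Oat.

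The oxidising enzymes were more spread out among KO mice than among WT mice. Cyp2e1, which oxidises ethanol and paracetamol (chromosome 7, 140763819 to 140774990), was at 8.04, 7.51 and 6.65 in KO mice, against 7.65 and 8.05 in WT mice. Cyp1a2, which oxidises caffeine (chromosome 9, 57676937 to 57683655), was at 5.62, 4.85 and 4.27 in KO mice, against 5.49 and 5.41 in WT mice. In both genes animal 69 was lowest, and animal 137 was inside or above the WT range. Gulo, whose product performs the last step of vitamin C synthesis (chromosome 14, 65986786 to 66009254), was at 7.63, 7.38 and 7.03 in KO mice, against 7.49 and 7.53 in WT mice, again with animal 69 lowest. The differences were -0.45 (SE 0.52) for Cyp2e1, -0.54 (SE 0.94) for Cyp1a2 and -0.17 (SE 0.43) for Gulo.

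Genes of WNT feedback and reception pointed in different directions. Axin2, a scaffold of the complex that degrades beta-catenin and itself a target of the pathway (chromosome 11, 108917828 to 108950783), was at -1.40, -3.30 and -2.93 in KO mice, against -2.16 and -1.89 in WT mice. Animal 137 was above both WT mice, and animals 64 and 69 were below both. Lgr5, a receptor for R-spondins (chromosome 10, 115450314 to 115587780), was at 0.45, -0.78 and -0.34 in KO mice, against -0.99 and -0.67 in WT mice, a difference of 0.61 (SE 0.68). Tbx3, a T-box transcription factor (chromosome 5, 119670534 to 119684724), averaged 2.88 ± 0.62 in KO mice (n = 3) and 2.91 ± 0.20 in WT mice (n = 2).

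KO and WT mice of 2 months shared no slide. With slide as a fixed block, which links them through the hemizygous mice, the median of the 10 differences was 0.35 with 3 below 0. That fit adds KO mouse 137 minus hemizygous mice 27 and 28 to hemizygous mouse 30 minus the WT mice. KO mice 64 and 69 shared no slide with hemizygous or WT mice of 2 months and did not enter. With this block the differences of Glul (0.02), Gulo (0.21), Cyp2e1 (0.49) and Axin2 (0.84) were above 0, resting on KO mouse 137 as the only KO mouse. Within the slide that held KO mouse 137 with hemizygous mice 27 and 28, KO minus hemizygous was -0.06 for Glul and 1.15 for Lgr5.

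Hemizygous livers were called different from WT in none of the 10 genes, and limma called 0 of 27115 genes (0.0%). The counts at an unadjusted p under 0.05 were 0 of 10 and 344 of 27115 (1.27%). Over the alternative settings up to 36 genes were called. The 10 differences ran from -0.30 (Axin2, SE 0.66) to 0.26 (Cyp1a2, SE 0.94). KO minus hemizygous was below 0 in 8 of the 10 genes, beside 44.9% of all genes, with none of the 10 among the 14 of 27119 genes that limma called (0.0516%). The median difference was -0.20. With slide as a block, where KO mouse 137 was the only KO mouse to enter, it was 0.08 with 3 of the 10 below 0.

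**Figure D2:**
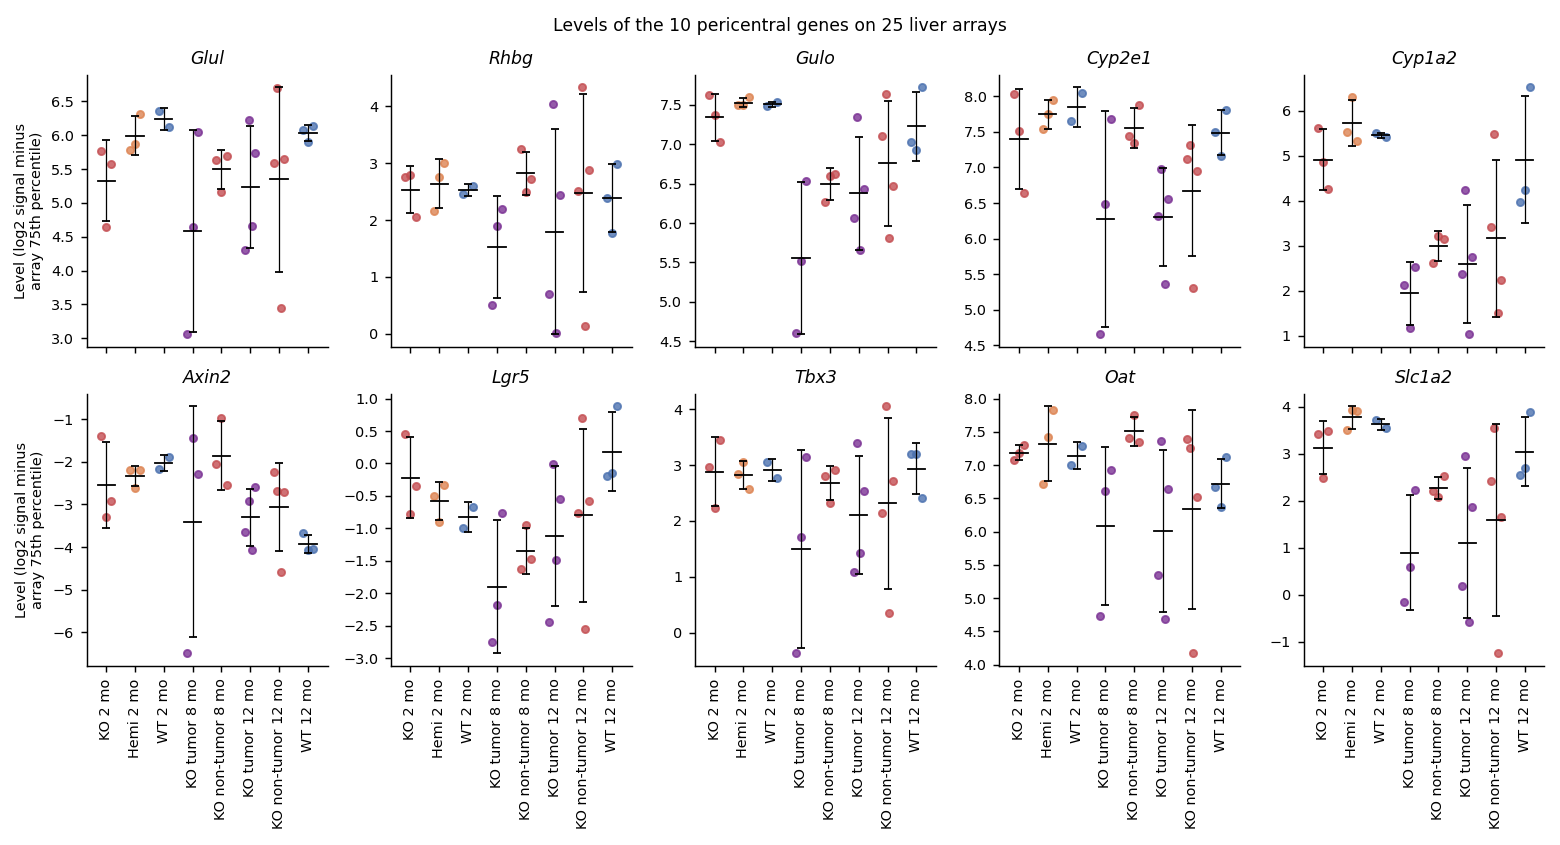
Level of each of the 10 genes (log2 signal minus the array's 75th percentile, 1 panel per gene with its own scale) in the 8 groups, with 1 point per array and the mean and SD as line and bar (n = 2 to 4). For Glul, KO livers of 2 months lie below WT livers, and KO non-tumor livers of 12 months run from 3.45 to 6.70, past the WT livers on both sides.

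At 12 months, KO non-tumor liver had lower values than WT liver in 8 of the 10 genes, and none of the 10 was called. The KO non-tumor and WT arrays shared no slide, so slide and genotype cannot be told apart here, and WT mice 552 and 1110 were scanned on another day than the KO non-tumor livers. Limma called 4 of 27124 genes (0.0147%). The median difference of the 10 was -0.66, that of all genes was -0.09, and 55.2% of genes were below 0. At an unadjusted p under 0.05, 1 of the 10 was lower, as were 8.66% of all genes. In 0 of the 10 genes did the groups separate, as 4.77% of genes did on the lower side.

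That 1 gene was Cyp1a2. It was at 3.42, 5.49, 1.50 and 2.25 in non-tumor liver of animals 1109, 638, 702 and 793, against 3.97, 4.25 and 6.53 in WT mice 552, 641 and 1110. KO mouse 638 lay among the WT mice, the remaining KO mice lay below all WT mice, and WT mouse 1110 was far above the other WT mice. The difference was -1.75 (SE 0.79, adjusted p = 0.273, 95% interval -3.43 to -0.06), or 0.298 times the WT level. Over the alternative settings the adjusted p ran between 0.0263 and 0.61. Without KO mouse 638 the difference was -2.52 and Cyp1a2 was called, among 2850 genes in all. Without WT mouse 1110 it was -0.94, and without KO mouse 702 it was -1.19 (adjusted p = 0.547). With scan day as a term, which leaves WT mouse 641 as the same-day control, it was -1.08 (SE 1.15), and the medians of the 10 genes and of all genes were then -0.524 and -0.525. The array of 641 stood apart, with 85.0% of its probes well above background, the most of the 25 arrays. It was the highest of the 18 arrays without tumor in 24.5% of all genes. Scan day and this array cannot be told apart in that fit. The second Cyp1a2 probe gave -1.67.

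Slc1a2 was next in size. It was at 2.42, 3.54, -1.25 and 1.65 in KO non-tumor liver, against 2.55, 2.69 and 3.88 in WT liver, with a difference of -1.45 (SE 0.78, adjusted p = 0.365). Glul was at 5.59, 6.70, 3.45 and 5.65 in KO non-tumor liver, against 6.07, 5.90 and 6.14 in WT liver. KO mouse 638 was above all WT mice in Glul, the other KO mice were below them, and the difference was -0.69 (SE 0.54, adjusted p = 0.564). The second Glul probe gave -2.21 and the second Gulo probe -1.27, against -0.47 (SE 0.36) for the first Gulo probe, so the size of these differences depended on the probe. Cyp2e1 was at 7.12, 7.31, 5.31 and 6.95 in KO non-tumor liver, against 7.50, 7.17 and 7.80 in WT liver (difference -0.82, SE 0.44, adjusted p = 0.36).

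Rhbg and Oat spanned the WT range on both sides. Rhbg ran from 0.14 to 4.34 in KO non-tumor liver and from 1.78 to 2.98 in WT liver, with a difference of 0.09 (SE 0.68). Oat ran from 4.17 to 7.40 in KO non-tumor liver and from 6.38 to 7.12 in WT liver, with a difference of -0.39 (SE 0.58). In both genes animal 702 gave the lowest KO value.

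The WNT genes were divided. Axin2 was at -2.25, -2.69, -4.58 and -2.71 in KO non-tumor liver, against -3.68, -4.06 and -4.05 in WT liver. Animals 1109, 638 and 793 were above all WT mice and animal 702 was below them, and the difference was 0.87 (SE 0.55, adjusted p = 0.451). Lgr5 was at -0.76, 0.70, -2.55 and -0.58 in KO non-tumor liver, against -0.20, -0.14 and 0.89 in WT liver (difference -0.98, SE 0.57, adjusted p = 0.403). Tbx3 averaged 2.31 ± 1.54 in KO non-tumor liver (SD, n = 4) and 2.94 ± 0.46 in WT liver (n = 3).

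The 12-month median rested in large part on 1 animal. Without non-tumor liver of animal 702 the median of the 10 was -0.11 with 6 below 0, and Tbx3 (0.03) and Oat (0.34) were above 0. The difference was then -0.51 for Slc1a2 (SE 0.46), -0.06 for Glul (SE 0.35), -0.36 for Cyp2e1 (SE 0.33) and -0.40 for Lgr5 (SE 0.44), while Axin2 was at 1.38 (SE 0.46, limma adjusted p = 0.282). Without animal 638 the median was -1.08 with 9 below 0. Beside this, hepatocyte markers in non-tumor liver of 702 averaged 6.59, inside the range of 6.38 to 6.87 of the 4 KO livers, and periportal genes averaged 5.37, inside 4.96 to 5.71. The 25 further pericentral genes listed below averaged 2.02 there, the lowest of the 4, whose highest was 4.25. Cholangiocyte markers, taken as the log2 of their summed signal, were at 7.58 in non-tumor liver of 702, above the 5.17, 4.82 and 5.45 of animals 1109, 638 and 793, although their mean level of -1.57 lay inside the range of the 4. Their part in the values of the 10 genes was not tested.

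**Figure D3:**
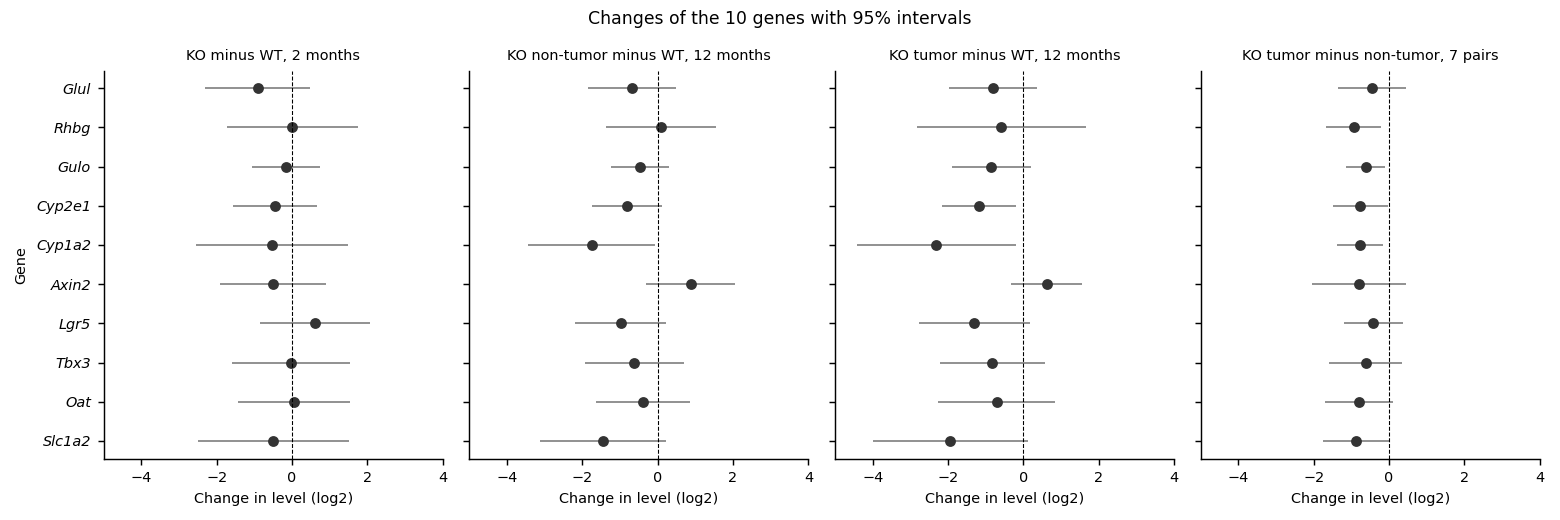
Difference in level (log2) of the 10 genes in 4 comparisons, with points for the fitted difference and lines for the 95% interval, left of 0 meaning lower in the first-named tissue. In KO non-tumor minus WT at 12 months 1 interval excludes 0, that of Cyp1a2, and in KO tumor minus WT those of Cyp2e1 and Cyp1a2 do. KO and WT arrays shared no slide in any of these comparisons.

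Age was compared within each genotype. WT livers of 12 and 2 months shared no slide, nor did KO livers of 12 and 2 months, so slide and age cannot be told apart. WT livers of 12 months were called different from those of 2 months in none of the 10, where limma called 11 of 27117 genes (0.0406%). Axin2 was lower at an unadjusted p under 0.05, as were 5.75% of all genes. It was at -3.68, -4.06 and -4.05 at 12 months, below -2.16 and -1.89 at 2 months, a difference of -1.90 (SE 0.66, adjusted p = 0.329). Lgr5 was at -0.20, -0.14 and 0.89 at 12 months, above -0.99 and -0.67 at 2 months (1.01, SE 0.68, adjusted p = 0.614). Each was the 1 gene of the 10 without overlap on its side, beside 12.4% of genes on the lower and 15.4% on the higher side. The median of the 10 was -0.32 with 8 below 0, and -0.01 with 5 below 0 with slide as a block, which moved the median of all genes to 0.38, against -0.03 without it. That block linked the ages through KO and hemizygous mice, with WT mouse 641 the only 12-month mouse to enter.

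In KO mice, non-tumor liver of 8 months was called different from liver of 2 months in none of the 10, and limma called 0 of 27123 genes (0.0%), with up to 320 under other settings. At an unadjusted p under 0.05, 2 of the 10 were lower, beside 7.5% of all genes, and 4341 genes passed in both directions together. Cyp1a2 was at 2.61, 3.22 and 3.15 at 8 months, below 5.62, 4.85 and 4.27 at 2 months (difference -1.92, SE 0.84, adjusted p = 0.287). Gulo was at 6.26, 6.60 and 6.62 at 8 months, below 7.63, 7.38 and 7.03 at 2 months (difference -0.85, SE 0.38, adjusted p = 0.294). Lgr5 was lower without overlap too (-1.13, SE 0.61), so that 3 of the 10 were (11.5% of all genes), and Oat was the 1 gene higher without overlap (0.32, SE 0.62, 12.8% of all genes). All tissues of 8 months were likewise on other slides than those of 2 months.

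Between 12 and 2 months in KO mice, limma called 2 of 27123 genes (0.00737%) and none of the 10, with Cyp1a2 at -1.75 (SE 0.79, adjusted p = 0.277). It was the 1 gene of the 10 lower at an unadjusted p under 0.05, beside 10.2% of all genes. Without animal 638 at 12 months Cyp1a2 was at -2.52 and was called, among 853 genes. Without animal 702 it was at -1.20 (SE 0.76, limma adjusted p = 0.478), Glul (0.65), Rhbg (0.71), Tbx3 (0.09) and Lgr5 (0.01) were above 0, and the median of the 10 was -0.07, against -0.58 with that animal. Between 12 and 8 months limma called 0 of 27124 genes (0.0%) and at most 1 under other settings. Of the 10, Axin2 alone had an unadjusted p under 0.05 (-1.20, SE 0.55), as had 1418 genes in all (5.23%).

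The change of the KO difference between 2 and 12 months was tested as an interaction. None of the 10 was called and limma called 0 of 27116 genes (0.0%), with 0 of 10 and 2592 of 27116 (9.56%) at an unadjusted p under 0.05 and up to 303 genes called under other settings. The interaction was -1.59 for Lgr5 (SE 0.89), 1.39 for Axin2 (SE 0.86) and -1.21 for Cyp1a2 (SE 1.23), so different effects at these ages were not shown.

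Tumors were set against non-tumor liver of the same 7 animals. The fitted difference was below 0 in 10 of the 10 genes, with a median of -0.76, whereas 53.5% of all genes were below 0 and their median was -0.02. None of the 10 was called, and limma called 0 of 24611 genes (0.0%), under every setting tried as well. At an unadjusted p under 0.05 the tumor was lower in 4 of the 10, beside 1.7% of all genes, and 996 genes passed in either direction. Those 4 were Rhbg, Gulo, Cyp2e1 and Cyp1a2, each with a limma adjusted p of 0.999. Rhbg and Gulo were lower in the tumor of 7 of 7 animals, which held for 0.849% of all genes.

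The animals differed more than the genes did. In animals 1347, 1287 and 1109, 10 of the 10 genes were lower in the tumor, with median differences of -2.63, -0.97 and -1.34. In animal 638 it was 9 of 10 (median -0.40), and in animal 934 it was 6 of 10 (-0.14). In animal 793 it was 4 of 10 (median 0.06), and in animal 702, whose non-tumor liver was the lowest, it was 3 of 10 (median 0.52). The share of all genes that were lower in the tumor ran from 39.6% in animal 638 to 60.4% in animal 1347. Tumor values were lower by 1 or more in 9 of the 10 genes in animals 1347 (20.9% of all genes) and 1109 (7.3%), and in 0 of the 10 in animals 934, 702 and 793.

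**Figure D4:**
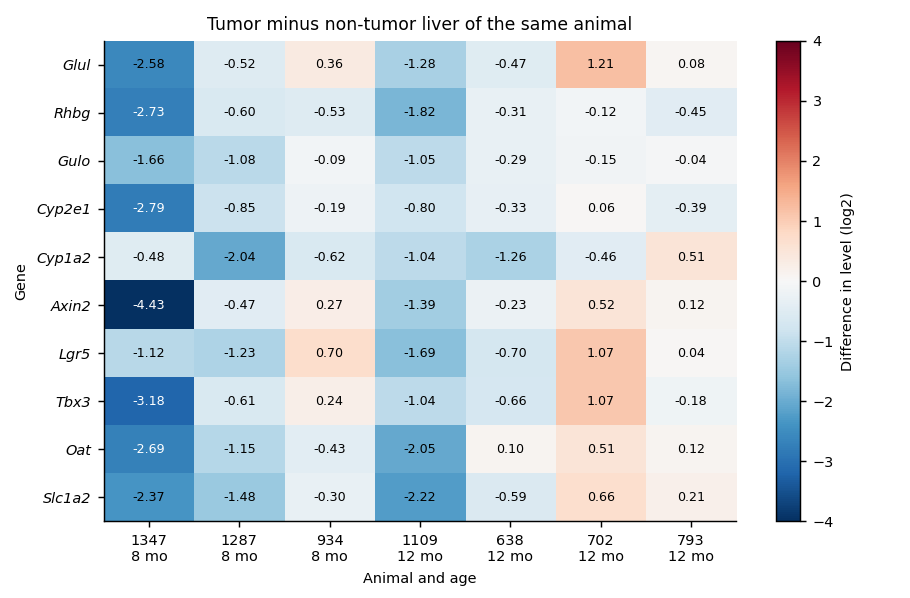
Tumor minus non-tumor level (log2) for each of the 10 genes (rows) in each of the 7 animals (columns, with age), blue where the tumor is lower and red where it is higher, with full color from -4 and 4 on. The columns of 1347, 1287 and 1109 are blue in 10 of 10 genes, and the rows of Rhbg and Gulo are below 0 in 7 of 7 animals.

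Among the nitrogen genes, Rhbg was at 0.51, 1.89 and 2.20 in tumors and 3.24, 2.49 and 2.73 in non-tumor liver of the 8-month animals 1347, 1287 and 934. It was at 0.70, 4.04, 0.02 and 2.43 in tumors and 2.52, 4.34, 0.14 and 2.88 in non-tumor liver of the 12-month animals 1109, 638, 702 and 793. Every pair had the lower value in the tumor, by 0.12 in animal 702 and more elsewhere. The mean difference was -0.94 ± 0.96 (SD, n = 7), with a 95% interval of -1.67 to -0.20, or 0.523 times the non-tumor level. Glul was at 3.06, 4.65 and 6.04 in tumors and 5.63, 5.17 and 5.69 in non-tumor liver at 8 months. At 12 months it was at 4.30, 6.23, 4.66 and 5.74 in tumors and 5.59, 6.70, 3.45 and 5.65 in non-tumor liver. The tumor was the lower sample in 4 of 7 animals, and no tumor exceeded 6.23 (difference -0.46, SE 0.40, adjusted p = 0.999).

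Slc1a2 was at -0.15, 0.60 and 2.23 in tumors and 2.21, 2.08 and 2.53 in non-tumor liver at 8 months. At 12 months it was at 0.19, 2.95, -0.59 and 1.86 in tumors and 2.42, 3.54, -1.25 and 1.65 in non-tumor liver. It was lower in the tumor of 5 of 7 animals, most in 1347 and 1109 (difference -0.87, SE 0.39). Oat ran from 4.68 to 7.36 with a median of 6.61 in tumors and from 4.17 to 7.76 with a median of 7.35 in non-tumor liver, and was lower in the tumor of 4 of 7 animals (difference -0.80, SE 0.40).

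For the oxidising enzymes, Cyp2e1 was at 4.66, 6.49 and 7.69 in tumors and 7.44, 7.34 and 7.88 in non-tumor liver at 8 months. At 12 months it was at 6.32, 6.98, 5.36 and 6.56 in tumors and 7.12, 7.31, 5.31 and 6.95 in non-tumor liver. It was lower in 6 of 7 tumors, animal 702 being the exception (difference -0.76, SE 0.32, 95% interval -1.48 to -0.03). Cyp1a2 was at 2.13, 1.18 and 2.53 in tumors and 2.61, 3.22 and 3.15 in non-tumor liver at 8 months. At 12 months it was at 2.38, 4.23, 1.04 and 2.76 in tumors and 3.42, 5.49, 1.50 and 2.25 in non-tumor liver. It was lower in 6 of 7 tumors, with 793 as the exception and the lowest difference in animal 1287 (difference -0.77, SE 0.27, 95% interval -1.39 to -0.15). Gulo ran from 4.61 to 7.35 with a median of 6.07 in tumors and from 5.81 to 7.64 with a median of 6.60 in non-tumor liver (difference -0.62, SE 0.23). Its second probe was lower in 6 of 7 animals.

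Among the WNT genes, Axin2 was at -6.49, -1.43 and -2.28 in tumors and -2.06, -0.97 and -2.56 in non-tumor liver at 8 months. At 12 months it was at -3.64, -2.92, -4.06 and -2.59 in tumors and -2.25, -2.69, -4.58 and -2.71 in non-tumor liver. The tumor of 1347, where the probe was not well above background, was far below the other tumors, and the median difference over the 7 animals was -0.23. Lgr5 was lower in 4 of 7 tumors (difference -0.42, SE 0.35) and Tbx3 in 5 of 7 (difference -0.62, SE 0.43). The Tbx3 level of the 1347 tumor was -0.37, against 2.81 in its non-tumor liver.

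Without animal 1347, whose samples also differed in slide and scan day, the median of the 10 differences was -0.43 with 10 below 0. The difference was then -0.10 for Glul (SE 0.30), -0.20 for Tbx3 (SE 0.27), -0.20 for Axin2 (SE 0.25), -0.30 for Lgr5 (SE 0.37) and -0.42 for Cyp2e1 (SE 0.17). Without animal 702 it was -0.735 for Glul and -0.904 for Tbx3. Without both 1347 and 702, a choice made after seeing the data, it was -0.54 with 10 below 0. Hepatocyte markers were lower in 8 of 9 genes in tumors, with a median of -0.11, and averaged 6.56 in the 1347 tumor, against 6.69 in its non-tumor liver. Lymphocyte and neutrophil markers averaged -0.89 in that tumor, against -1.53 in its non-tumor liver. The summed signal of cholangiocyte markers (log2) was 6.94, 7.79, 7.76 and 7.86 in the tumors of 1347, 1287, 1109 and 702, against 6.02, 5.25, 5.17 and 7.58 in their non-tumor livers. It was 5.75, 4.58 and 4.86 in the tumors of 934, 638 and 793, against 4.97, 4.82 and 5.45 in their non-tumor livers. A sum weighs bright markers most. Taken gene by gene, 5 of the 7 markers were lower in tumors than in non-tumor liver (median -0.10), with Krt19 at -0.68 (SE 0.36). Spp1, which encodes osteopontin, went the other way, with a tumor difference of 0.94 (SE 0.43, limma adjusted p = 0.999). The part of these cell types in the values of the 10 genes was not tested.

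A dependence of the tumor difference on age was not shown. In the interaction test none of the 10 was called and limma called 0 of 24611 genes (0.0%), with 0 of 10 and 1491 genes (6.06%) at an unadjusted p under 0.05 and none called under other settings. The interaction was above 0 in 10 of the 10 genes (median 0.85), where 41.3% of all genes were below 0, and without animal 1347 it was below 0 in 5 of the 10 (median 0.07).

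Tumors of 12 months were also set against the 3 WT livers that served the non-tumor comparison. The tumors and WT livers shared no slide, and WT mice 552 and 1110 were scanned on another day than the tumors. Slide and tissue thus cannot be told apart here. None of the 10 was called, and limma called 0 of 24273 genes (0.0%), with up to 393 under other settings. Values were lower in 9 of the 10, beside 47.8% of all genes, with a median of -0.84. At an unadjusted p under 0.05, 2 of the 10 were lower (7.5% of all genes), and 3958 genes passed in either direction. Cyp2e1 was at 6.32, 6.98, 5.36 and 6.56 in the tumors, each below 7.50, 7.17 and 7.80 in WT liver (difference -1.19, SE 0.42, adjusted p = 0.263). It was the 1 gene of the 10 without overlap, beside 8.45% of all genes. Cyp1a2 was at 2.38, 4.23, 1.04 and 2.76 in the tumors, against 3.97, 4.25 and 6.53 in WT liver, with a difference of -2.31 (SE 0.89, adjusted p = 0.283), or 0.202 times the WT level. Axin2 was the 1 gene above 0 (0.63, SE 0.40). Between tumors of 12 and 8 months none of the 10 was called, limma called 0 of 22907 genes (0.0%), as it did under other settings, and 0 of 10 and 867 genes (3.78%) had an unadjusted p under 0.05.

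Levels of the 10 genes moved together from array to array. Over 25 arrays, Pearson's r between pairs of the 10 ran from 0.24 to 0.93 with a median of 0.78 (45 pairs). The arrays share slides, animals and scaling, so these values are descriptions. Without both samples of animal 702 and the tumor of 1347 the median was 0.53, with 39 of 45 pairs above 0. By Pearson's r, Tbx3 was closest to Glul of all 15192 genes compared (r = 0.93, and 0.80 without those 3 arrays). By Spearman's rho it was at 0.71, below Slc1a2 at 0.80, Nr1i3 at 0.93 and Pon1 at 0.81, and Axin2 was furthest from it among the 10 (r = 0.56, rho = 0.25). The median r with Glul was 0.81 for the other 9 genes and 0.14 for all genes, and with Cyp2e1 it was 0.78 and 0.11.

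Outside the 10, the genes most like Glul by r were Nr1i3 (r = 0.90), Pon1 (0.88), Slc25a21 (0.88), Rgn (0.87) and Angptl6 (0.87). Nr1i3 encodes the drug-sensing nuclear receptor CAR, and Pon1 the serum enzyme paraoxonase. The genes most like Cyp2e1 were Slc27a5 (r = 0.92), Pbld2 (0.91), Pon1 (0.90), Nr1h4 (0.90) and Acsm5 (0.90). Nr1h4 encodes the bile acid receptor FXR. Pon1 was on both lists.

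Another 25 genes known for pericentral expression were all measured. At 2 months 16 of 25 were lower in KO than in WT (median -0.43), and at 12 months 21 of 25 were lower in KO non-tumor liver than in WT (median -0.73). In tumors 23 of 25 were lower than in non-tumor liver (median -0.33), and 0 of the 25 were called in these 3 comparisons. At an unadjusted p under 0.05, 2 were lower at 2 months, beside 8.85% of all genes in either direction. At 12 months 7 were lower (8.66% of all genes), and in tumors 6 were (1.7%). Por, the reductase that passes electrons to microsomal oxidases, averaged 6.76 ± 0.87 in KO mice (n = 3) and 8.52 ± 0.14 in WT mice (n = 2) at 2 months, a difference of -1.76 (SE 0.50, adjusted p = 0.327). Cyp27a1, a sterol hydroxylase of bile acid synthesis, averaged 2.53 ± 1.25 in KO non-tumor liver of 12 months (n = 4) and 4.33 ± 0.65 in WT liver (n = 3), a difference of -1.80 (SE 0.52, adjusted p = 0.13). Sult5a1, of the sulfotransferase family, was lower in the tumor of 7 of 7 animals (difference -0.94, SE 0.21, adjusted p = 0.999).

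Periportal genes, which mark the opposite end of the lobule, were measured for 18 of 20. Of these, 9 were lower in KO at 2 months (median -0.10), 6 were lower in KO non-tumor liver at 12 months (median 0.20) and 15 were lower in tumors (median -0.36), with 0 called. At an unadjusted p under 0.05, 6 of the 18 were lower and 1 was higher in tumors, where 1.7% of all genes were lower. The urea-cycle genes Ass1 (difference -0.60, SE 0.18) and Asl (-0.57, SE 0.17) and Hal, the first enzyme of histidine breakdown (-0.62, SE 0.16), were lower in the tumor of 7 of 7 animals, each with a limma adjusted p of 0.999. No difference between the pericentral and periportal lists was tested.

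Ctnnb1, which encodes beta-catenin, differed by -0.05 (SE 0.25) between KO and WT at 2 months, by 0.07 (SE 0.21) between KO non-tumor and WT at 12 months and by -0.02 (SE 0.14) between tumor and non-tumor, and its sign turned in each comparison under other settings. Of 23 core pathway genes, 0 were called in these comparisons, with medians of -0.05, -0.47 and -0.02. Of 8 WNT and R-spondin genes of the central vein, 3 were lower in KO at 2 months, 5 in KO non-tumor liver at 12 months and 6 in tumors, with medians of 0.36, -0.97 and -0.27 and 0 called. Rspo3, an R-spondin of central vein endothelium, ran from -6.90 to -3.29 in KO non-tumor liver at 12 months and from -3.65 to -3.25 in WT liver, a difference of -1.42 (SE 0.58, adjusted p = 0.224). Its levels are low, and 6 of these 8 genes were well above background on all KO non-tumor arrays of 12 months. At an unadjusted p under 0.05, 3 of the 8 were lower there, beside 8.66% of all genes. Wls was the 1 higher (1.075, SE 0.446, limma adjusted p = 0.232). Of 15 further WNT feedback and target genes, 4 were lower at 2 months, 8 at 12 months and 9 of the 12 tested in tumors (medians 0.14, -0.12 and -0.22), again with 0 called. Sp5, a target of the pathway, averaged -1.32 ± 1.17 in KO non-tumor liver (n = 4) and -0.01 ± 0.40 in WT liver (n = 3), a difference of -1.31 (SE 0.51, adjusted p = 0.2). Dkk2 of the same list was higher, at 1.553 at 12 months (SE 0.699) and 2.523 at 2 months (SE 0.835). Lef1 was at 1.97 at 2 months (SE 0.696). At an unadjusted p under 0.05, 2 of the 15 were higher and 0 lower at 2 months, and 1 was higher and 1 lower at 12 months.

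Of 5 other target genes of the aryl hydrocarbon receptor, 2 were lower in KO at 2 months and 1 in KO non-tumor liver at 12 months. In tumors 2 were lower, and 0 were called. The medians were 0.53, 0.81 and 0.02, each above 0. Cyp1a1 was among the lower genes at both ages, with -1.24 at 2 months (SE 0.51, adjusted p = 0.513) and -0.68 at 12 months (SE 0.43, adjusted p = 0.449). Cyp1b1, Ahrr and Nqo1 were higher at both ages. Cyp1b1 was at 1.119 at 2 months (SE 0.697, limma adjusted p = 0.698) and 1.225 at 12 months (SE 0.583, limma adjusted p = 0.298).

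Markers of other cells also differed between KO and WT livers beside the values of the 10 genes. Macrophage markers were higher in KO in 7 of 7 genes at 2 months (median 1.22) and in 7 of 7 at 12 months (median 1.35). Their mean level per array ran from 2.71 to 2.90 in KO and from 1.22 to 1.32 in WT at 2 months, and from 2.66 to 3.54 in KO non-tumor liver and from 0.20 to 2.38 in WT liver at 12 months. Stellate cell and matrix markers were higher in 8 of 8 at 2 months (median 1.23) and in 5 of 8 at 12 months (median 0.36). Lymphocyte and neutrophil markers were higher in 6 of 8 and 7 of 8 (medians 0.92 and 1.15), and cholangiocyte markers in 5 of 7 at both ages (medians 0.83 and 0.49). Endothelial markers were higher in 2 of 8 at 2 months and 6 of 8 at 12 months (medians -0.15 and 0.30). Hepatocyte markers were lower in 6 of 9 at 2 months (median -0.13) and in 7 of 9 at 12 months (median -0.36). None of these markers was called, and the part of cell composition in the 10 genes was not tested.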

How the data were processed

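RNA of 25 mouse liver samples was hybridised to 1-colour Agilent arrays. The deposited scanner files hold spot intensities made with Feature Extraction 10.5.1.1, per the file headers, and the deposited series matrix holds log2 values whose ranks equal those of the median signal in the scanner files. Its column medians lay between 6.565 and 6.577, so it had been normalized between arrays, and how is not given in the sources used here. The submitters' processing notes name limma.

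Processed signals were averaged over the spots of a probe, logged and set relative to each array's 75th percentile. Symbols came from RefSeq accessions, which named 24375 of 41174 probes (59.2%), and a gene was represented by its probe of highest mean signal. Genes were tested with limma 3.58.1 in R 4.3.3 when well above background on at least 2 of 18 arrays, or 3 of 14 or 7, with Benjamini-Hochberg adjustment over all genes and a threshold of 0.05. Non-tumor groups shared 1 model of 18 arrays. Tumor comparisons used the animal as a block, since the labels give tumor and non-tumor tissue of the same animal the same number. In a check of that pairing a tumor's deviation correlated best with its own animal in 5 of 7 animals. The exceptions were 1347 (r = 0.14 with its own non-tumor liver, 0.32 with the closest other animal) and 793 (0.27 and 0.33). The highest r with the own animal was 0.62. The script was tested on simulated data.

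The 10 genes and the lists were chosen with earlier results of these data known. Named in the text are all 10, Mcl1, Ctnnb1, up to 4 genes per list with the smallest p in each main comparison, and the 5 genes most like Glul and the 5 most like Cyp2e1. Alternatives covered scaling, background correction, probe choice, filters, variance model, slide, scan day, Xist level, samples in the fit and each animal left out. Normexp used the median signal where the plan had named the mean signal. The labels number the animals separately, with 1 array per sample. Their number limits the precision.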

Additional observations from a re-analysis of the deposited data

Results flagged for a closer look

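In 30 groups of 4 to 10 values, 2 had an extreme value far from the rest by Dixon's criterion, and chance alone gives about 1 in 20 groups. Both were tumor minus non-tumor differences of the 8-month animal 1347. For Cyp2e1 the difference was -2.786, with the nearest of the other 6 animals at -0.855. For Axin2 it was -4.431, with the nearest at -1.392, and the Axin2 probe was not well above background in that tumor. The pair of samples from this animal lay on 2 slides and 2 scan days, so animal, slide and scan day cannot be told apart.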

How the results depend on the processing

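Of 180 values of the 10 genes at 2 months, 163 kept their sign and their side of the threshold, of 200 at 12 months 191 did, and of 219 in tumor against non-tumor 219 did. These counts overstate stability, because several settings cannot move a difference. Filters, the variance model and fitting only the groups compared leave it unchanged, and scan day cannot move the 2-month differences. For KO against WT at 2 months, slide as a block rested on KO mouse 137 alone among the KO mice. It gave Glul 0.02, Gulo 0.213, Cyp2e1 0.487, Axin2 0.844 and Ctnnb1 0.241. Quantile normalization gave Gulo 0.013, Tbx3 0.1 and Ctnnb1 0.072, and the percentile over probes detected on all arrays gave Tbx3 0.08 and Ctnnb1 0.06. Tbx3 was at 0.043 with normexp, 0.053 in the series matrix and 0.246 with the Xist level as a covariate, and Ctnnb1 was at 0.0 in the series matrix and 0.033 over all probes. Leaving out 1 mouse gave -0.12 to 0.249 for Rhbg, -0.314 to 0.297 for Tbx3, -0.093 to 0.191 for Oat and -0.203 to 0.099 for Ctnnb1. For KO non-tumor against WT at 12 months, Rhbg was at -0.101 with normexp, -0.152 in the series matrix and -0.004 with the Xist covariate, and Ctnnb1 was at -0.182 over all probes. Leaving out 1 mouse gave -0.538 to 0.863 for Rhbg, -1.206 to 0.032 for Tbx3, -0.738 to 0.338 for Oat and -0.02 to 0.218 for Ctnnb1. In tumor against non-tumor, Ctnnb1 was at 0.005 with quantile normalization, 0.029 over all probes, 0.003 with slide or scan day as a term, 0.018 in animals of 12 months and 0.025 without 702 and 1347, and between -0.098 and 0.02 on leaving out 1 animal. The cause of these changes was not tested. Of the 10 genes, 0 to 1 were called on leaving out 1 mouse in KO non-tumor against WT at 12 months and in KO at 12 against 2 months, the 1 being Cyp1a2 without animal 638.

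Counts over all genes moved more. KO against WT at 2 months called 7 genes, and 0 to 77 under other settings, the most with slide as a block. KO non-tumor against WT at 12 months called 4, as few as 0 under other settings and 2850 without animal 638. With scan day as a term, WT mouse 641 is the only control on that day and its array stood apart, so no count is given. Counts ran from 0 to 1656 for WT at 12 against 2 months, the most without WT mouse 641. They ran from 0 to 1440 for KO at 12 against 2 months and from 0 to 75 for KO against hemizygous. The tumor comparison without the animal block, and so without the pairing, called 0 genes. It gave the same median of -0.764, as it must when every animal has both samples. Scan day and slide terms in the tumor comparison equal leaving out animal 1347, so that fit was counted under each of these settings. Groups of 2 to 4 animals limit what can be called, and a p that misses the threshold does not show equal levels.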
